A study of Mus musculus with 59 samples.

Results

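The set described here is the cytosolic ribosomal protein genes of the mouse, 83 of the 51562 genes listed in each of the 10 gene tables of the study. Members were chosen by symbol alone: Rpl or Rps, then digits, then at most 1 letter of a, x, y or l, with nothing after it, plus Rplp0, Rplp1, Rplp2 and Rpsa. Symbols ending in -ps, which mark pseudogenes, were left out. Of the 83, 32 encode proteins of the small subunit (the Rps genes and Rpsa) and 51 proteins of the large subunit (the Rpl genes and the acidic stalk proteins Rplp0, Rplp1 and Rplp2). Paralogues made from a second gene copy (Rpl3l, Rpl6l, Rpl10l, Rpl32l, Rpl39l, Rps4l and Rps27l) fall under the rule and are counted.

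The study deleted Daxx, a chaperone that places the histone variant H3.3, or the myeloid transcription factor Pu.1 (gene Spi1) in blood-forming cells of C57BL/6 mice and measured RNA in sorted progenitors. The labels describe 59 samples, and 36 columns of 8 gene tables could be tied to a genotype. Each value is a normalised count, that is, the reads of a gene divided by 1 size factor per library. Tables were normalised separately, so levels are set side by side across tables only as a percentage of a library's total value, and every test stays within 1 table.

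KLS cells, sorted as lineage-negative cells bearing c-Kit and Sca-1, hold the stem cells among other early progenitors, and GMPs (granulocyte–monocyte progenitors) are committed myeloid progenitors. The groups are WT (Daxx +/+ Cre +/-), Daxx-KO (Daxx F/F Cre +/-) and DKO (Daxx F/F and Pu.1 F/F, with Cre +/-), and a separate Pu.1 line of WT (Pu.1 +/+ Cre +/-) and Pu.1-KO (Pu.1 F/F Cre +/-). KLS cells and GMPs with no time on their labels (untimed) comprised 2 WT and 2 Daxx-KO libraries each. At 3 weeks post induction (w.p.i.) there were 3 WT, 3 Daxx-KO and 2 DKO libraries of each cell type, and in the Pu.1 line, also at 3 w.p.i., 2 WT and 2 Pu.1-KO libraries of each. At 24 w.p.i. 2 WT libraries of each cell type could be used, and these are given as levels with no comparison. The labels give the Mx1Cre line for the timed groups, a Cre driven by an interferon-inducible promoter and switched on by injecting pI:pC, a double-stranded RNA mimic. Controls carried the same Cre and received the same injections, so every genotype at 3 and 24 w.p.i. had been exposed to an interferon response. The paper describes RNA-seq of KLS cells and GMPs at 3 and 24 w.p.i. and of cells re-isolated from transplanted, lethally irradiated mice, the last in duplicate. The untimed libraries, 2 per genotype and cell type, match the transplanted cells in number and in having no week on the label. The labels themselves do not say whether they are those.

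Ribosomal proteins assemble with ribosomal RNA in the nucleolus, and the finished subunits carry out translation in the cytosol. Their mRNAs are short, abundant and encoded by compact genes, and most begin with a C followed by a run of pyrimidines, the 5′ terminal oligopyrimidine (TOP) tract, through which mTOR signalling and LARP1 control translation of the whole family. Blood formation is known to be sensitive to their dose: loss of a gene copy for RPS19, RPL5 or RPL11 underlies Diamond–Blackfan anaemia, and loss of a copy of RPS14 belongs to the 5q- syndrome. Rpl5 and Rpl11 also bind Mdm2, which connects ribosome assembly with p53.

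Libraries held between 3388906 and 29335964 gene reads, of which 36274 to 528789 came from members. No library lacking Daxx by its label reached the Daxx value of any WT library in its table (29.7 to 33.9 against 119 to 138 in untimed KLS cells, and 72.2 to 102 against 423 to 505 in KLS cells at 3 w.p.i.). Spi1 was not reduced in the KLS libraries labelled DKO (2993 and 3330, against 1669 to 2320 in WT), and in the Pu.1 line it was 1307 and 2920 in Pu.1-KO KLS cells against 2080 and 2764 in WT, so these groups are called the libraries labelled DKO and Pu.1-KO. Whether the counted reads lie outside the deleted part of Spi1 was not tested. Summed over lists of 7 GMP markers and 8 KLS markers, GMP markers were the higher sum in all 18 GMP libraries. KLS markers were the higher sum in 12 of the 18 KLS libraries. The other 6, both untimed Daxx-KO libraries, both labelled DKO and both labelled Pu.1-KO, had more GMP than KLS marker signal, against their label. In bulk samples, fewer cells of a type and less RNA per cell cannot be told apart, which holds for every member value below.

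Start-site windows are shown for a selection of members. Most of those shown bear a pyrimidine run at the annotated start, though only 14 of the 61 members with an entry do. Rpl7a and Rpsa are shown without one. Other members named in the results below, such as Rpl10, Rps2 and Rps19, have entries without such a run and are not shown. RefSeq promoter entries (GRCm38.p6) matched 61 of the 83 members, in 73 entries. Each line gives 5 bases before and 25 bases from the annotated transcription start on the gene's own strand, 5′ to 3′, and capitals mark a C followed by at least 4 pyrimidines without a break, which begins at the start itself.
Rps6: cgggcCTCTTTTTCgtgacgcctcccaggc
Rps10: cgcccCTTCCTTTCCagcctccgcctcgga
Rps15a: gccatCTTCCCTCgccggtgagtgagtgtt
Rpl15: gccttCTTCCTTTCCTCTggcggcagccat
Rpl38: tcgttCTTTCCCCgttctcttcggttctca
Rplp2: tcttcCTTTCgccgccggacgccgccgagg
Rpl7a: ctttctttctccagcagccgagcaagatgg
Rpsa: taaggacgtcatttccggccgcccgtcctt

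These windows lie at chr4:86857343-86857372 (minus strand, Rps6), chr17:27635220-27635249 (minus, Rps10), chr7:118116123-118116152 (minus, Rps15a), chr14:18270962-18270991 (minus, Rpl15), chr11:114668575-114668604 (plus, Rpl38), chr7:141447646-141447675 (plus, Rplp2), chr2:26910802-26910831 (plus, Rpl7a) and chr9:120127761-120127790 (plus, Rpsa). Such a run stood exactly at an annotated start in 14 of 61 member genes (23.0%), against 813 of all 27025 genes of the same table (3.01%). The letters CTTTC were found anywhere in the 30-base window of 14 member genes (23.0%) and of 4.26% of all genes, and their reverse complement GAAAG in 2 member genes (3.28%) and in 4.33% of all genes. A run of these letters can overlap CTTTC, as in Rpl38. In Rpl7a pyrimidines precede and span the annotated start, but its annotated first base is a T, so it was not counted. A match describes letters at an annotated start and no match says only that they are not there.

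The members differed in level by several orders of magnitude, and the 10 highest carried more than the rest together. Rpsa, the laminin-receptor-related protein of the small subunit, held on average 0.128% of a library's total value (8.83% of the members' sum, 36 libraries), and Rpl4, a core protein of the large subunit, 0.124% (8.57%). Next came Rpl8 at 0.0887%, the stalk base Rplp0 at 0.0803% and Rpl13a at 0.0687%. The ranges of these 5 overlapped: Rpsa ran from 0.0188% to 0.330% over libraries and Rpl4 from 0.0378% to 0.197%. Part of this range lay between tables. In untimed KLS cells of WT, Rpl4 was 6546 and 6587 and Rpsa 1290 and 1278. In KLS cells of WT in the Pu.1 line, Rpl4 was 29296 and 19534 and Rpsa 66281 and 43010. The order therefore holds for the mean over all libraries and not for each table. Divided by exon length, the order changed. Rplp1, a stalk protein, was then highest with 32.3 times the level per kilobase of the median member, followed by Rpl8 (20.9 times), Rpl4 (19.8 times), Rplp0 (15.5 times), Rpl32 (14.3 times) and Rpsa (12.9 times).

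The lowest members included several paralogues and core genes. Rpl24, Rpl32l, Rpl35, Rpl35a and Rps4l were listed at 0 in all 36 libraries. Rpl24, Rpl35 and Rpl35a encode core proteins of the large subunit that every cell uses, so a 0 here says only how the gene is listed. In the annotation (GRCm38, GENCODE M21) an exon of Rpl24 overlaps a gene model on its own strand, Gm28037, and exons of Rpl35 overlap Arpc5l and Wdr38 on the other strand. Exons of Rpl35a, Rpl32l and Rps4l overlap no other annotated gene. Those of Rpsa and Rpl4, the highest members on average, overlap only snoRNA genes (genes of short RNAs) nested within them, Gm24044 in Rpsa and Gm22455 and Snord16a in Rpl4. Whether overlap bears on the values of 0 was not tested. Rpl3l, best known from heart and skeletal muscle, had a read in 31 libraries, Rpl39l in 16 and Rpl10l, known from testis, in 8, all 8 of them in the Pu.1 line. Among members with reads in every library, Rps27, Rpl23a, Rps13, Rps29 and Rpl36a were lowest, with means from 0.000490% to 0.000926% of the total.

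**Figure D1:**
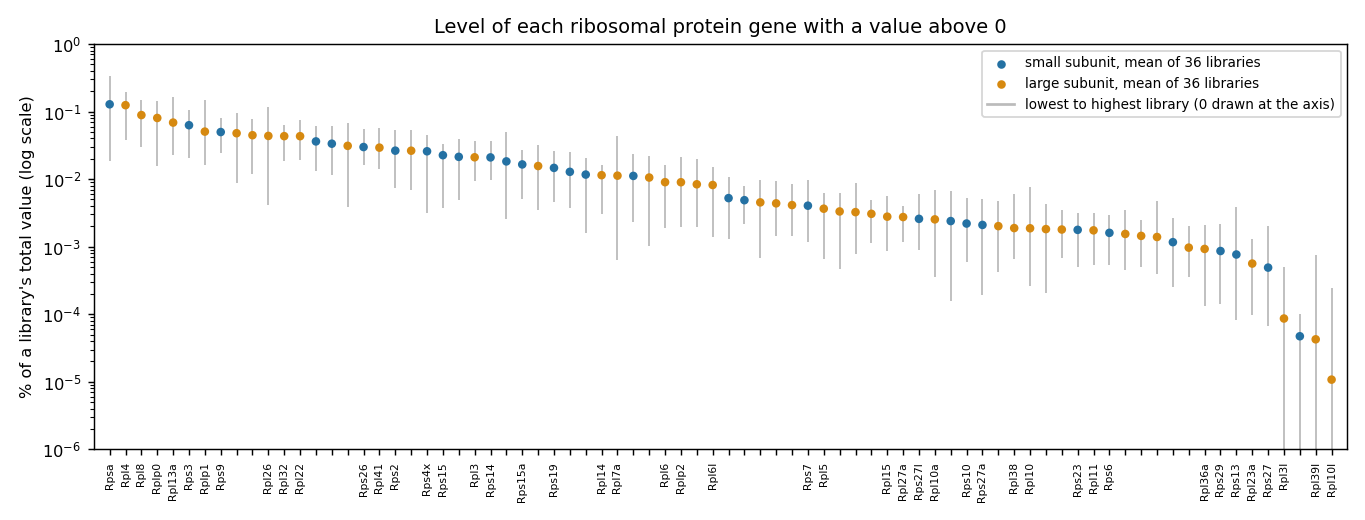
Mean level of the 78 members with a value above 0, as % of a library's total value on a log axis, with the lowest and highest of 36 libraries as a grey line (a lowest value of 0 is drawn at the axis). Rpsa, Rpl4 and Rpl8 lead, and Rpl3l, Rpl39l and Rpl10l sit far below them, with names drawn only for members described in the text.

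Compact genes bring a counting problem. Of the members, 29 hold 56 snoRNA genes inside their span, short RNAs that guide ribosomal RNA modification, and all 56 were listed at 0 in all libraries. Exons of 27 members overlap another annotated gene on the same strand and those of 18 on the opposite strand, and the counting tool and its use of strand are not given in the sources used here, so single member levels are uncertain where genes overlap. Rpl6l, an intronless copy resembling Rpl6, may share reads with it.

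As a whole the family took between 0.560% and 2.34% of the total value, with a median of 1.51% over 36 libraries. Small and large subunit members moved together: across the 8 KLS libraries at 3 w.p.i. Pearson's r between the summed small and the summed large subunit shares was 0.98 (Spearman's rho 0.98), and across the 8 GMP libraries 0.99 (rho 1). These sums share a library and its denominator, so the correlation is a description. The ratio of the small to the large subunit sum stayed between 0.548 and 0.810.

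**Figure D2:**
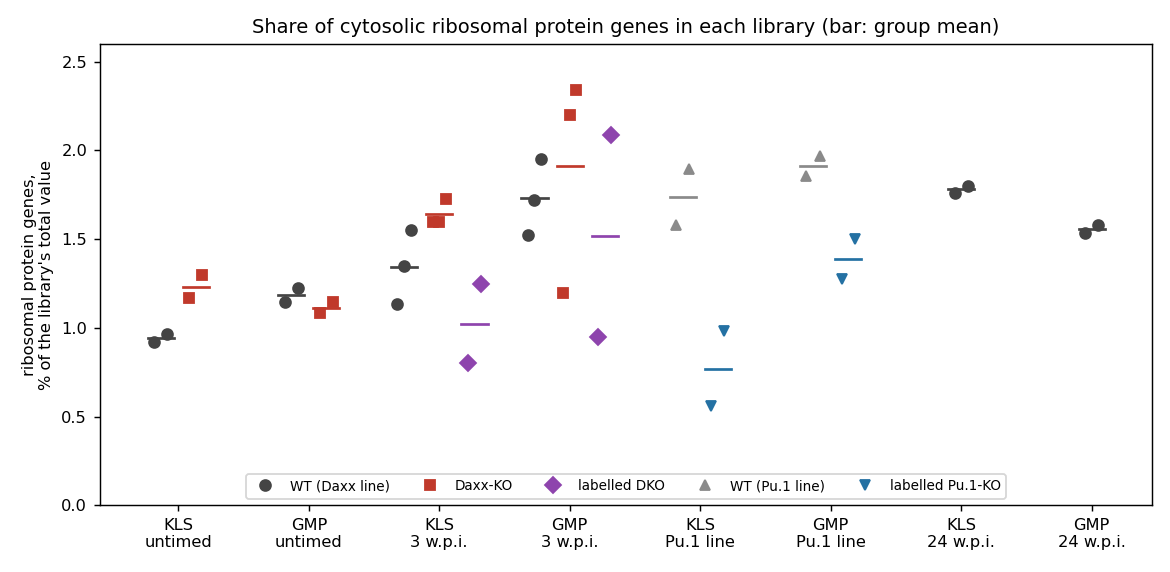
Summed share of the members in each library, as % of the total value, by cell type and time, with symbols for the genotype and a bar at the group mean. In KLS cells of the Pu.1 line both Pu.1-KO libraries, at 0.981% and 0.560%, lie below both WT libraries at 1.90% and 1.58%.

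Over all 36 libraries, which mix cell types and tables, the share was lower where that of long genes was higher. Within KLS cells at 3 w.p.i. there was little such relation. Genes spanning 100 kb or more took 17.7% to 40.3% of the total value, and across all 36 libraries r with the members' share was -0.79 (rho -0.74). Within the 8 GMP libraries at 3 w.p.i. r was -0.91 (rho -0.86), and within the 8 KLS libraries at 3 w.p.i. it was -0.08 (rho -0.19). Both shares come from the same library and total, and members are themselves short (median span 3243 bases, against 3497 over all annotated genes). For this reason the median change of genes under 10 kb and of genes of 100 kb or more is given beside each comparison.

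**Figure D3:**
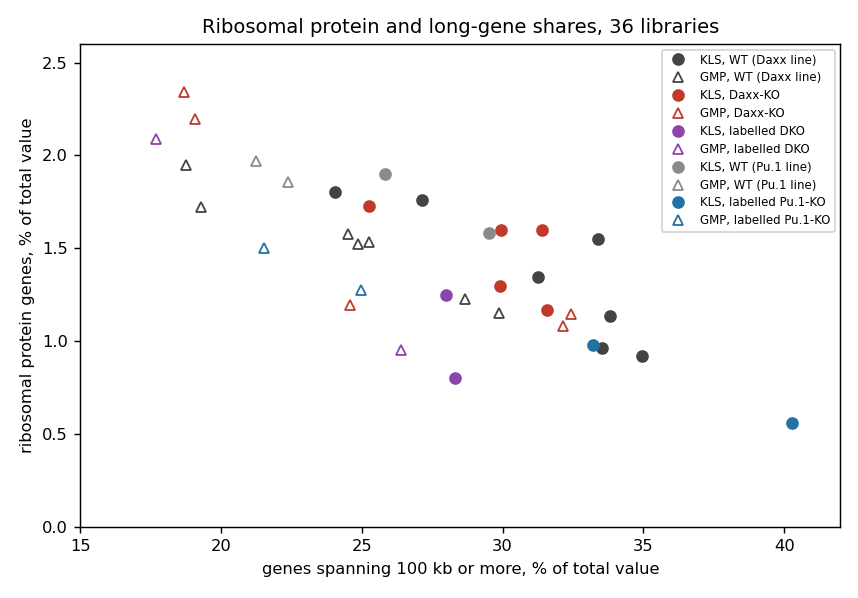
Members' share (% of total value, vertical) against the share of genes spanning 100 kb or more (% of total value, horizontal), 1 point per library, with filled circles for KLS cells and open triangles for GMPs. The points fall from the upper left to the Pu.1-KO KLS library at 40.3% and 0.560%.

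For each comparison, limma was fitted to log2(value + 1) of all genes with a mean value of at least 10 over the libraries of the table, and p-values were adjusted over all genes tested (Benjamini–Hochberg). A gene is called, and said to rise or fall, when its adjusted p is under 0.05. The share of all genes at an unadjusted p under 0.05 was not counted, so counts at that threshold have no background beside them. Replicates are libraries that the labels name as separate samples, so a p-value measures the spread between these libraries. Of the 83 members, 74 passed this filter in the untimed and the 3 w.p.i. tables of the Daxx line, 77 in KLS cells and 76 in GMPs of the Pu.1 line. The 9 below it in the Daxx line included Rpl24, Rpl35, Rpl35a and the paralogues Rpl3l, Rpl10l, Rpl32l, Rpl39l and Rps4l.

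**Figure D4:**
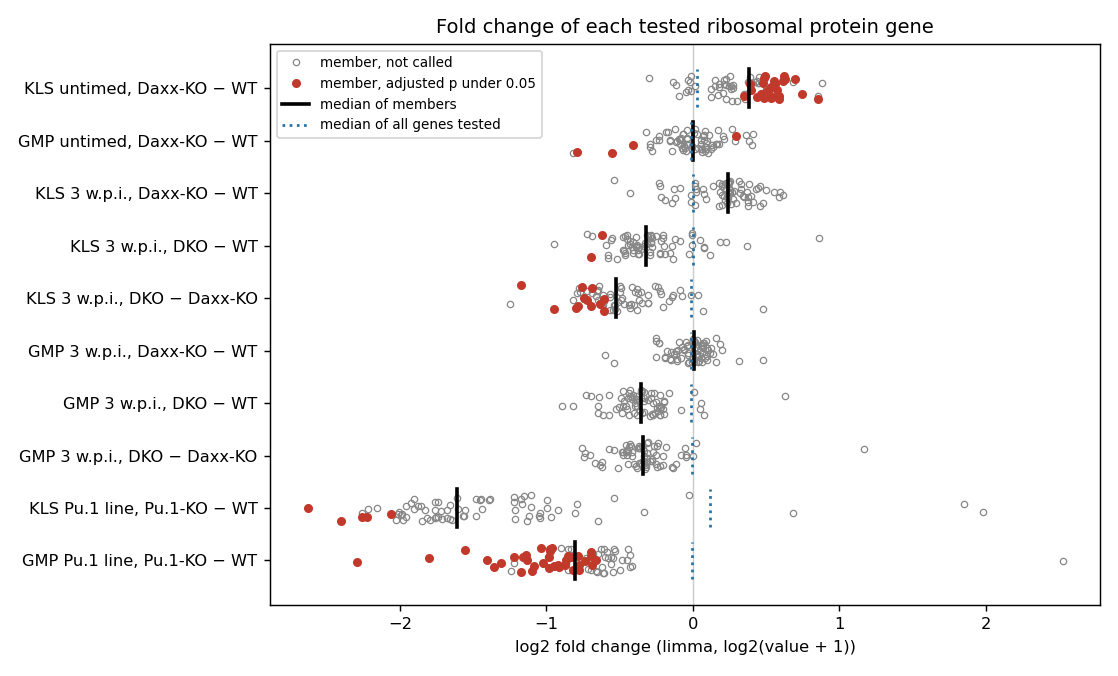
Log2 fold change of every tested member in the 10 comparisons (limma on log2(value + 1)), red where adjusted p is under 0.05, with a black bar at the members' median and a blue dotted bar at the median of all genes tested. Members lie right of all genes in untimed KLS cells (0.38 against 0.03) and left of them in both cell types of the Pu.1 line (-1.61 and -0.80).

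In untimed KLS cells the ribosomal protein genes were higher without Daxx. The family's share was 0.965% and 0.920% in WT and 1.17% and 1.30% in Daxx-KO, so both Daxx-KO libraries lay above both WT libraries, by 1.31 times on the means. Of 74 tested members 26 rose and none fell, where 10.6% of all genes tested were called higher and 12.5% lower. All libraries of Daxx-KO were above all libraries of WT for 55 members (32.9% of all genes) and below for none (29.8%). The members' median log2 change was 0.38, against 0.03 for all genes, 0.25 for genes under 10 kb and -0.38 for genes of 100 kb or more.

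Rises were spread over both subunits. Among 30 tested small subunit members 14 rose, with a median of 0.45 over the tested ones, and among 44 large subunit members 12 rose, with a median of 0.36. Rpl10, which sits near the peptidyl transferase centre and is X-linked, had the largest called change: its values were 251 and 239 in WT and 427 and 465 in Daxx-KO (log2 fold change 0.86 ± 0.14 SE, adjusted p = 0.0028). Both Daxx-KO libraries were well above both WT libraries. Rpl6l rose from 196 and 245 to 347 and 391 (0.75 ± 0.17, adjusted p = 0.014), again without overlap. Rps2, a protein of the small subunit near the mRNA entry channel, rose from 853 and 882 to 1438 and 1377 (0.70 ± 0.10, adjusted p = 0.0016), with the replicates of each genotype close together.

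The 5 members with the highest mean share over the 36 libraries, Rpsa, Rpl4, Rpl8, Rplp0 and Rpl13a, were among those that rose. In these cells Rps24 and Rplp1 had higher values than Rpsa and were not called. Rpsa was 1290 and 1278 in WT and 1870 and 2076 in Daxx-KO (0.62 ± 0.10, adjusted p = 0.0032). Rplp0, a common reference gene in quantitative PCR, was 3220 and 3309 in WT and 4526 and 5110 in Daxx-KO (0.56 ± 0.10, adjusted p = 0.0049). Rps14, the 5q- syndrome gene, was 853 and 909 in WT and 1306 and 1347 in Daxx-KO (0.59 ± 0.10, adjusted p = 0.0042). In these 3 genes no Daxx-KO library overlapped WT. Rps4x, X-linked in mouse and human, rose as well (0.54 ± 0.12, adjusted p = 0.015), from 1780 and 1803 to 2322 and 2942. The other called members, among them Rps3, Rpl8, Rps10, Rps9 and Rpl4, changed by 0.35 to 0.63.

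Not every well-known member moved. Rps6, the S6 kinase substrate, was 184 and 200 in WT and 158 and 200 in Daxx-KO (-0.11 ± 0.19, adjusted p = 0.72). Rpl5 was 418 and 379 in WT and 366 and 380 in Daxx-KO (-0.09 ± 0.13, adjusted p = 0.67), and Rpl11 was 167 and 172 against 155 and 176 (-0.04 ± 0.18, adjusted p = 0.92). For all 3 the genotypes overlapped. Rps19 was higher on average in Daxx-KO (0.35 ± 0.18, adjusted p = 0.22) with overlapping libraries.

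Other genes of the translation machinery were counted by list, where 10.6% of all genes tested were called higher and 12.5% lower. Of 54 tested genes of ribosome biogenesis 7 rose and none fell (median 0.18), among them Pes1, an assembly factor of the large subunit (0.82, adjusted p = 0.011), and Polr1e, a subunit of RNA polymerase I (0.66, adjusted p = 0.041). Of 25 tested TOP mRNAs outside the family 11 rose (median 0.39), including Rack1, which binds the small subunit (0.69, adjusted p = 0.0023), and the elongation factor Eef1a1 (0.66, adjusted p = 0.0065). Of 73 tested mitochondrial ribosomal protein genes 2 rose and none fell (median 0.24). Among 19 regulators 7 rose and 1 fell: Myc, a known activator of ribosomal protein genes, rose (0.79, adjusted p = 0.00056), the p53 target Cdkn1a rose (1.51, adjusted p = 0.0037) and Mycn fell (-3.22, adjusted p = 0.000165).

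Other features of these 4 libraries moved with genotype. All 7 GMP markers were tested and 6 rose, their sum being 692 to 1359 in WT and 11951 to 15530 in Daxx-KO, while 7 of 8 KLS markers fell (sum 30396 to 31991 in WT, 6806 to 7283 in Daxx-KO). Depth differed too, at 3857858 and 3942149 gene reads in WT and 6343790 and 22647397 in Daxx-KO. Their part in the change of the members was not tested. With 2 libraries a group the count of called members depended on each library: it was 13 without WT 1, 9 without WT 2, 1 without Daxx-KO 1 and 0 without Daxx-KO 2, while the median stayed between 0.31 and 0.45.

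Untimed GMPs showed no such rise. The share was 1.15% and 1.23% in WT and 1.08% and 1.15% in Daxx-KO (0.939 times on the means), the lower WT and the higher Daxx-KO library being almost equal. Of 74 tested members 1 rose and 3 fell, where 16.6% of all genes were called higher and 16.5% lower, and 9 members lay above and 9 below in all libraries (33.1% and 34.1% of all genes). The median was 0.00, against -0.01 for all genes, -0.09 for genes under 10 kb and 0.05 for genes of 100 kb or more.

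The 4 called members were single genes of differing roles. Rps27l, a paralogue of Rps27 known as a p53 target, was 364 and 389 in WT and 262 and 180 in Daxx-KO (-0.79 ± 0.18, adjusted p = 0.010). Rpl38, known for its part in translating Hox mRNAs, was 334 and 383 in WT and 219 and 273 in Daxx-KO (-0.55 ± 0.16, adjusted p = 0.026). Rps19, the gene most often lost in Diamond–Blackfan anaemia, was 769 and 837 in WT and 568 and 641 in Daxx-KO (-0.41 ± 0.11, adjusted p = 0.020). In these 3 both Daxx-KO libraries lay below both WT libraries. Rpl26, which also binds p53 mRNA, was 891 and 912 in WT and 1064 and 1146 in Daxx-KO, without overlap (0.29 ± 0.10, adjusted p = 0.043). Rps14 was 904 and 973 in WT and 856 and 816 in Daxx-KO (-0.17 ± 0.10, adjusted p = 0.24).

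Genes that build ribosomes were counted in the same comparison, where 16.6% of all genes tested were called higher and 16.5% lower. Of 54 tested biogenesis genes 28 fell and none rose (median -0.45), among them Rrp1b (-1.44, adjusted p = 0.00011) and Tcof1, a nucleolar factor of RNA polymerase I transcription (-0.89, adjusted p = 0.00095). Of 25 TOP mRNAs 6 fell, including the nucleolar chaperone Npm1 (-0.73, adjusted p = 0.0011), and of 73 mitochondrial ribosomal protein genes 13 fell and 1 rose (median -0.30). Of 19 regulators 4 rose and 3 fell: Mdm2 rose (0.50, adjusted p = 0.0080) and Cdkn1a fell (-1.88, adjusted p = 0.0045). Summed markers of late neutrophils (7 genes) were 4649 to 6389 in WT and 35041 to 50480 in Daxx-KO, and gene reads ran from 3388906 to 17307510, their part not tested. The number of called members was 0 without WT 1, 2 without WT 2, 7 without Daxx-KO 1 and 4 in the comparison as a whole.

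In KLS cells at 3 w.p.i. the members lay slightly above WT in Daxx-KO, but none was called. The share was 1.60%, 1.73% and 1.60% in Daxx-KO against 1.55%, 1.13% and 1.35% in WT, every Daxx-KO library being above every WT library, the nearest pair by a narrow margin. As a share of genes under 10 kb alone, a denominator chosen after seeing the data, the members took from 10.4% to 11.6% in Daxx-KO against 9.12% to 11.6% in WT, and the genotypes overlapped. By limma 0 of 74 members were called, where 0.184% of all genes were called higher and 0.0724% lower. At an unadjusted p under 0.05 there were 5 of 74, all higher, with no share of all genes counted at that threshold. By edgeR and DESeq2 on the reads 0 were called as well. All libraries of Daxx-KO were above those of WT for 21 members (9.07% of all genes) and below for 1 (9.16%). The median was 0.24 against 0.00 for all genes, 0.14 for genes under 10 kb and -0.14 for genes of 100 kb or more.

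Rpl41, the smallest ribosomal protein, was 3989, 4207 and 3892 in Daxx-KO against 3436, 2526 and 3452 in WT (0.37 ± 0.25, adjusted p = 0.58), with no overlap. Rps14 was 3228, 3243 and 2998 in Daxx-KO against 3556, 1765 and 3006 in WT (0.24 ± 0.23, adjusted p = 0.71), and here WT 2 stood low while the other WT libraries overlapped Daxx-KO. Summed B lineage markers were 4246, 32987 and 1558 in Daxx-KO against 468, 757 and 629 in WT, with 0 of 7 called and 6 under an unadjusted p of 0.05. Daxx-KO 2, the library with the highest member share, had the highest of these sums and the highest plasma cell marker sum among the 6 libraries (16571, against 835 to 11684 in WT). Erythroid sums (95.2 to 229 against 384 to 567) and megakaryocyte sums (457 to 521 against 917 to 1206) were lower in every Daxx-KO library. The part of these in the member values was not tested. Of the biogenesis, TOP, mitochondrial and regulator lists 0 genes were called by limma, with 3, 4, 5 and 2 genes at an unadjusted p under 0.05.

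The KLS libraries labelled DKO had less ribosomal protein RNA than Daxx-KO. Their share was 0.800% and 1.25%, below all 3 Daxx-KO libraries, and DKO 2 lay within the range of WT while DKO 1 was the lowest of the 8. This comparison and the next use the same 2 DKO libraries, and the Daxx-KO and WT libraries of the comparison above, so the 3 results are not independent. Against Daxx-KO 12 of 74 tested members fell and none rose, where 7.22% of all genes were called lower and 8.17% higher. All DKO libraries were below all Daxx-KO libraries for 45 members (22.3% of all genes) and above for none (22.3%), and the median was -0.52 against -0.01 for all genes, 0.02 for genes under 10 kb and -0.14 for genes of 100 kb or more.

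Among small subunit members 7 fell and among large subunit members 5, with medians of -0.59 and -0.49 over those tested. Rpl15, a large subunit protein, fell most: it was 346, 496 and 432 in Daxx-KO and 132 and 261 in DKO (-1.17 ± 0.30, adjusted p = 0.027). WT libraries held 400, 298 and 389, so both DKO libraries were below every other library. Rps23, a protein of the decoding centre, was 138 and 189 in DKO, against 313, 280 and 348 in Daxx-KO with WT at 260, 175 and 236 (-0.95 ± 0.26 against Daxx-KO, adjusted p = 0.034). DKO 2 lay above WT 2 for this gene.

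Rpl27a and Rps7 fell against both other genotypes. Rpl27a was 205 and 245 in DKO, against 395, 411 and 365 in Daxx-KO with WT at 367, 318 and 351 (-0.80 ± 0.19, adjusted p = 0.019, against Daxx-KO, and -0.62 ± 0.19, adjusted p = 0.048, against WT). Rps7, which also binds Mdm2, was 209 and 307 in DKO, against 430, 440 and 441 in Daxx-KO with WT at 450, 359 and 429 (-0.78 ± 0.21, adjusted p = 0.033, and -0.69 ± 0.21, adjusted p = 0.048). In both genes the DKO libraries were the lowest of all 8. Among abundant members Rpsa was 8789 and 10719 in DKO, against 16237, 17600 and 15015 in Daxx-KO with WT at 13810, 9188 and 14298 (-0.74 ± 0.21 against Daxx-KO, adjusted p = 0.041), the DKO libraries being below Daxx-KO but straddling WT 2. Rps4x, Rps9, Rps26, Rpl3, Rpl4 and Rpl14 fell by 0.60 to 0.76 on the log2 scale.

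Against WT, Rpl27a and Rps7 were the 2 of 74 members called, both lower, where 8.4% of all genes were called lower and 9.24% higher. All DKO libraries were below WT for 16 members (23.7% of all genes) and above for 1 (26%), and the median was -0.32 against 0.00 for all genes, 0.15 for genes under 10 kb and -0.22 for genes of 100 kb or more. The 1 member above was Rps27l, at 234 and 400 in DKO and 160, 127 and 231 in WT (0.86 ± 0.37, adjusted p = 0.14).

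Biogenesis genes were lower in DKO as well, 13 of 54 against Daxx-KO (median -0.48) and 7 against WT (median -0.28), with none higher. Of all genes tested 7.22% were called lower and 8.17% higher against Daxx-KO, and 8.4% lower and 9.24% higher against WT. Nop16 (-1.09, adjusted p = 0.012) and Npm1 (-0.99, adjusted p = 0.0053) led against Daxx-KO and Nop16 (-0.87, adjusted p = 0.029) and Polr1a, the largest subunit of RNA polymerase I (-0.70, adjusted p = 0.0047), against WT. Of 25 TOP mRNAs 9 fell against Daxx-KO and 3 against WT, Eef1g in both (-1.01, adjusted p = 0.0060, and -0.72, adjusted p = 0.027). Myc fell in both as well (-0.89, adjusted p = 0.0020, and -0.67, adjusted p = 0.0092). Of 73 mitochondrial ribosomal protein genes 3 rose and 1 fell in each comparison, Mrpl44 rising most in the one against WT (1.20, adjusted p = 0.0048).

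Late neutrophil markers summed to 138057 and 169689 in DKO, against 949 to 6351 in Daxx-KO and 525 to 28320 in WT, and 6 of 7 passed the test against Daxx-KO. GMP markers summed to 106326 and 110215 in DKO and to 3615 to 12730 in Daxx-KO. Their part in the lower member values was not tested. The counts rest heavily on 1 library: against Daxx-KO 0 members were called without DKO 1 and 31 without DKO 2, and 1, 3 and 1 without Daxx-KO 1, 2 and 3. Against WT the number was 0 without DKO 1, 14 without DKO 2, 1 without WT 2 and 0 without either of the other WT libraries, and the median against WT was -0.01 without DKO 1.

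GMPs at 3 w.p.i. varied more within genotypes than between them. The share was 0.950% and 2.09% in DKO, against 2.20%, 1.20% and 2.34% in Daxx-KO with WT at 1.95%, 1.52% and 1.72%, so that each genotype overlapped the others. In all 3 comparisons limma called 0 of 74 members, 0 were under an unadjusted p of 0.05, and edgeR and DESeq2 called 0 too. Few genes were called at all: 0.0656% higher and 0.0292% lower for Daxx-KO against WT, 0.211% and 0.0802% for DKO against WT, and 0.0583% and 0% for DKO against Daxx-KO. Members below in every library numbered 0 (3.46% of all genes), 2 (8.41%) and 1 (9.98%) in these comparisons, in that order, and 0 were above in every library in any of the 3 (4.64%, 10.1% and 10.7%).

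The median was 0.01 for Daxx-KO against WT, -0.35 for DKO against WT and -0.34 for DKO against Daxx-KO, with -0.01 for all genes in each. In the same order, genes under 10 kb had medians of -0.01, -0.07 and -0.06, and genes of 100 kb or more 0.00, 0.03 and 0.01. The comparisons share libraries. Of the biogenesis, TOP, mitochondrial and regulator lists limma called 0 genes in any of the 3, with at most 1 gene per list at an unadjusted p under 0.05. Each value hung on 1 library: without DKO a the medians against WT and Daxx-KO turned to 0.23 and 0.22, and without DKO b they were -0.91 and -0.89. Without Daxx-KO b the median of Daxx-KO against WT was 0.31, and without Daxx-KO c it was -0.15. In Rps19 the pattern is plain: 1146 and 2680 in DKO, against 2824, 1596 and 2967 in Daxx-KO with WT at 2969, 1635 and 2552. Daxx-KO b, WT b and DKO a were low, the libraries with the highest long-gene shares (24.6%, 24.9% and 26.4%, against 17.7% to 19.3% in the other 5), and summed late neutrophil markers ran from 40832 to 308174 over the 8 libraries. The part of these in the member values was not tested.

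The animal numbers in the columns tie GMP to KLS libraries. The animal of DKO a had the lowest share in both cell types (0.950% in GMPs and 0.800% in KLS cells), and the animal of WT b the lowest of WT in both (1.52% and 1.13%). The animal of Daxx-KO b had the lowest share of its genotype in GMPs (1.20%) and the highest in KLS cells (1.73%).

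The Pu.1 line showed far lower member values in KLS libraries labelled Pu.1-KO. The share was 1.90% and 1.58% in WT and 0.981% and 0.560% in Pu.1-KO, without overlap. Of 77 tested members 5 fell and none rose, where 0.341% of all genes were called lower and 0.469% higher. All Pu.1-KO libraries were below WT for 72 members (31.9% of all genes) and above for 1 (33.7%). The median was -1.61, against 0.12 for all genes, 0.00 for genes under 10 kb and 0.79 for genes of 100 kb or more.

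Rpl7a, a large subunit protein hosting snoRNA genes in its introns, was 937 and 651 in WT and 227 and 69.1 in Pu.1-KO (-2.63 ± 0.59, adjusted p = 0.0060). Rps15 was 4568 and 3126 in WT and 1241 and 409 in Pu.1-KO (-2.41 ± 0.61, adjusted p = 0.027), and Rps4x was 4211 and 2612 against 1351 and 353 (-2.26 ± 0.61, adjusted p = 0.040). Rps19 was 4775 and 3134 in WT and 1357 and 504 in Pu.1-KO (-2.22 ± 0.62, adjusted p = 0.047). In these 4 genes Pu.1-KO b was the lowest library, well below Pu.1-KO a, so the spread within the genotype was wide. Rpl11 stood apart from them with 211 and 171 in WT and 207 and 169 in Pu.1-KO (-0.02 ± 0.62, adjusted p = 0.98), which overlapped.

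Low paralogues had values on the other side. Rpl10l was 1.36 and 5.06 in WT and 7.02 and 26.9 in Pu.1-KO (1.98 ± 1.81, adjusted p = 0.44), the 1 member above in every library. Rpl39l was 5.42 and 11.8 in WT and 11.7 and 83.2 in Pu.1-KO (1.85 ± 1.24, adjusted p = 0.31). Both passed the filter mainly through 1 Pu.1-KO library, and neither was called.

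No gene of the biogenesis, TOP, mitochondrial or regulator lists was called by limma in these KLS cells. At an unadjusted p under 0.05 there were 37, 15, 23 and 6, with no share of all genes counted at that threshold. The medians were -1.40, -1.52, -0.91 and -0.94. Late neutrophil markers summed to 23888 and 43240 in WT and 60001 and 124706 in Pu.1-KO, KLS markers to 50058 and 59090 against 14246 and 31294, and the long-gene share was 25.8% and 29.5% against 33.2% and 40.3%. The part of these in the lower member values was not tested. The count of called members was 0 without either WT library or without Pu.1-KO b and 54 without Pu.1-KO a. It was 1 by edgeR and 18 by DESeq2.

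GMPs of the Pu.1 line gave the largest number of called members. The share was 1.86% and 1.97% in WT and 1.28% and 1.50% in Pu.1-KO, without overlap. Of 76 tested members 37 fell and none rose, where 8.49% of all genes were called lower and 9.15% higher. All Pu.1-KO libraries were below WT for 72 members (33.5% of all genes) and above for 1 (31.5%). The median was -0.80, against 0.00 for all genes, -0.28 for genes under 10 kb and 0.57 for genes of 100 kb or more.

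Of small subunit members 17 of 31 tested fell (median -0.82), and of large subunit members 20 of 45 (median -0.73). Rpl10a, a protein of the L1 stalk, fell most, from 214 and 206 to 37.0 and 47.9 (-2.29 ± 0.41, adjusted p = 2.07e-06). Rps27a, made as a fusion with ubiquitin, fell from 88.9 and 111 to 20.0 and 38.5 (-1.80 ± 0.51, adjusted p = 0.0065), and Rpl5, which carries 5S RNA together with Rpl11, from 226 and 269 to 82.4 and 83.9 (-1.56 ± 0.35, adjusted p = 0.00041). In each of them both Pu.1-KO libraries were well below WT. The remaining 34 called members fell by 0.66 to 1.40 on the log2 scale.

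Several genes known from ribosomal disorders or as references were among them. Rps19 was 3341 and 3690 in WT and 1530 and 2064 in Pu.1-KO (-0.98 ± 0.24, adjusted p = 0.0012). Rplp0 was 11592 and 13117 in WT and 5403 and 8835 in Pu.1-KO (-0.84 ± 0.27, adjusted p = 0.020), and Rps4x was 2116 and 2551 against 1204 and 1507 (-0.79 ± 0.24, adjusted p = 0.011). Rpl41 was 2823 and 3157 against 1592 and 2244 (-0.66 ± 0.24, adjusted p = 0.037). None of these 4 overlapped between genotypes. Rps6 was 142 and 151 in WT and 78.5 and 68.5 in Pu.1-KO (-0.99 ± 0.39, adjusted p = 0.059), Rpl22, whose loss is known from T-cell leukaemia, 9550 and 10149 against 5016 and 8568 (-0.59 ± 0.27, adjusted p = 0.10), and Rps14 3351 and 3836 against 2145 and 2996 (-0.50 ± 0.24, adjusted p = 0.12), all without overlap but not called. Rpl3l was the 1 member above in every library, at 2.12 and 3.92 in WT and 30.0 and 15.4 in Pu.1-KO, and it passed the filter only through the Pu.1-KO libraries, where it is high.

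Most genes of the biogenesis list fell in these GMPs, where 8.49% of all genes tested were called lower and 9.15% higher. Of 54 biogenesis genes 45 fell (median -0.90), including Dimt1 (-1.47, adjusted p = 0.0010) and Fbl, the fibrillarin that methylates ribosomal RNA (-1.35, adjusted p = 7.2e-05). Of 25 TOP mRNAs 17 fell (median -0.74), led by the snoRNA host Snhg1 (-1.51, adjusted p = 0.00016). Among the regulators 8 of 19 fell, Zfp692 (-1.72, adjusted p = 5.97e-06) and the TOP-binding Larp1 (-0.93, adjusted p = 0.0057) most, and 14 of 73 mitochondrial ribosomal protein genes fell (median -0.56).

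GMP markers summed to 263613 and 287403 in WT and 105089 and 186663 in Pu.1-KO, with 4 of 7 lower and 1 higher, and all 7 late neutrophil markers rose (sum 29276 and 36540 against 165097 and 167803). Their part in the fall of the members was not tested. The number of called members was 1 without either WT library and 60 without Pu.1-KO b, and the median was -0.55 or lower when any 1 library was left out.

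Rpl11, Rpl22 and Rps6 were called in none of the 10 comparisons. They share this with many other tested members, Rps13, Rps27 and Rps29 among them.

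**Figure D5:**
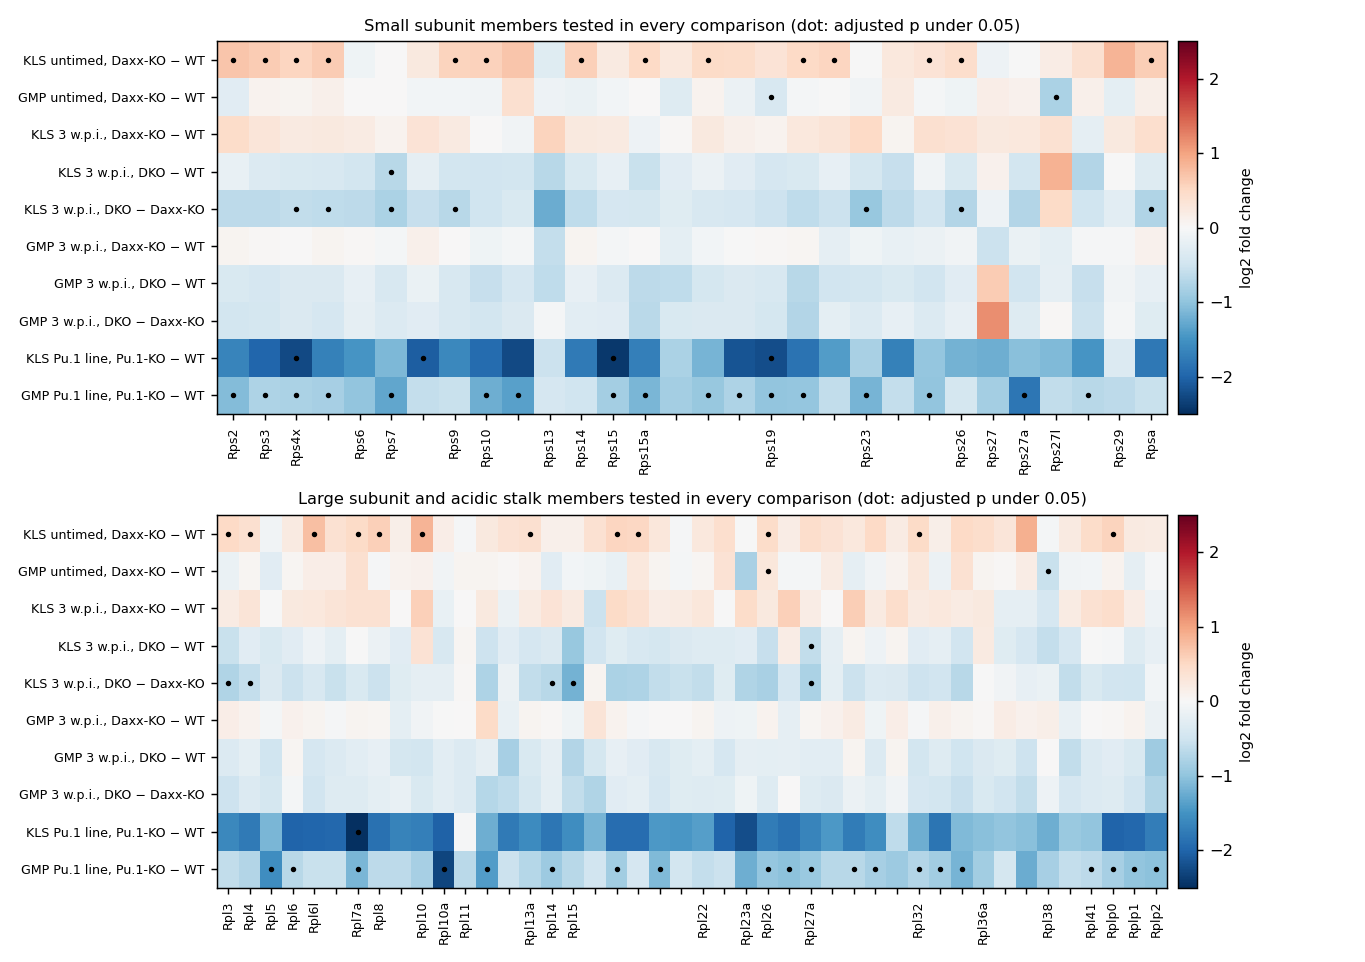
Log2 fold change (colour, red higher and blue lower in the group named on the left) of each member tested in every comparison, small subunit above and large subunit with the stalk below, with a dot where adjusted p is under 0.05. Untimed KLS cells are mostly red with 26 dots over both subunits, and GMPs of the Pu.1 line mostly blue with 37.

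Pseudogene copies of the family, which share sequence with the members, were counted separately. In untimed KLS cells 6 of 50 tested rose and none fell (median 0.49), where 10.6% of all genes were called higher. Those that rose included Rpsa-ps10 (0.90, adjusted p = 0.00064) and Rpl7-ps7 (1.07, adjusted p = 0.0062). In the Pu.1 line 7 of 32 tested fell in GMPs (8.49% of all genes) and 4 of 30 in KLS cells (0.341%). Their summed share was 0.0267% to 0.265% of the total. Reads of these copies and of their parent genes cannot be told apart with certainty from the tables.

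In WT cells the share at 24 w.p.i. was 1.76% and 1.80% in KLS cells and 1.58% and 1.53% in GMPs. Rpsa was 33698 and 36992 in KLS cells and 36780 and 31783 in GMPs on the scale of those tables. These libraries had no mapped knockout beside them, so no genotype effect was computed.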

How the data were processed

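RNA-seq values were taken from the deposited gene tables. Per the labels, the submitters' processing notes name CASAVA 1.8.4, cutadapt 1.13, STAR 2.5.3, DESeq2 1.16.1 and mm10; the counter, its use of strand and the annotation are not given in the sources used here. The authors deposited a signal per gene, reads divided by a size factor per library. Every value was a whole read multiple within 0.01, so reads were recovered for edgeR and DESeq2. The labels and the methods name different RNA and library kits, so the kit of each library is not settled.

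In all, 23 columns were not used because no label ties them to a sample. GMP libraries at 3 w.p.i. were tied to genotypes by animal number (a, b, c), and the unnumbered WT library and the Pu.1 line by control or treatment endings. limma 3.58.1 (R 4.3.3) was run on log2(value + 1) with the genotypes of a table in 1 fit and no block. It was also run on counts simulated with the same dispersion for every gene and no library-wide shift. That run cannot show how the fit behaves where whole libraries differ in composition, as they do here. Alternatives were pseudocounts of 0.5 and 5, no filter, TMM, scaling without members, edgeR 4.0.16, DESeq2 1.42.0, only the 2 groups compared, a replicate block, other denominators and leaving out each library. The members and lists were chosen with earlier results of these data known. Genes were named by role, by the 3 largest called changes each way, by the 5 highest and lowest levels and by at most 2 called genes a list and direction; Rpl32, Rplp1 and the further called members listed beside them were chosen after their values were seen. Some members are counted but not reported by name here.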

Additional observations from a re-analysis of the deposited data

Results flagged for a closer look

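In untimed cells the members' share moved in opposite directions in KLS cells and GMPs. Daxx-KO held 1.31 times the share of WT in KLS cells and 0.939 times in GMPs, every library of Daxx-KO lying above WT in the former and below it in the latter. In GMPs the genotypes were almost touching, and they overlapped when noncoding and mitochondrial genes or the 100 highest genes were left out of the total. For the small subunit alone the ratios were 1.34 and 0.914. Rps14 had a log2 change of 0.59 in KLS cells and of -0.17 in GMPs, each without overlap. The difference between the cell types was not tested, since their tables were normalised separately.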

How the results depend on the processing

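With all libraries kept, the median change and the share ratio of the members kept their sign in every comparison and alternative, except that the median in untimed GMPs, 0.00081, was -0.0055 with no filter. TMM moved the median of all genes in KLS cells of the Pu.1 line from 0.12 to 0.26 on the log2 scale, and that of the members from -1.61 to -1.47. The number of called members became 10 in untimed KLS cells with no filter. In untimed GMPs it was 2 by DESeq2. In KLS cells at 3 w.p.i. it was 0 for DKO against WT with no filter, by edgeR and with only the 2 groups compared, and for DKO against Daxx-KO it was 5 with no filter, 6 by edgeR and 22 by DESeq2. In KLS cells of the Pu.1 line it was 19 with TMM, 1 by edgeR and 18 by DESeq2. With genes under 10 kb as the denominator, chosen after seeing the data, the log2 ratio of the share was 0.29 in untimed KLS cells, -0.73 for DKO against WT in KLS cells and 0.069 for Daxx-KO against WT in KLS cells at 3 w.p.i., where the genotypes then overlapped. Causes were not tested.

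With a replicate block the counts were 30 in untimed KLS cells, 3 in untimed GMPs, and 0 in all 3 comparisons of KLS cells at 3 w.p.i. The fit at 3 w.p.i. also left out the unnumbered WT library, and Daxx-KO 3 was alone in its block. Its counts therefore do not show the effect of the block alone. The numbers are not shown to pair the samples: deviations of same-numbered libraries correlated at -0.0095 in untimed KLS cells, -0.111 in untimed GMPs and -0.214 to 0.0689 in KLS cells at 3 w.p.i. Crossed pairing in untimed GMPs, added after seeing the data, gave 11. For GMPs at 3 w.p.i. and the Pu.1 line no paired fit was made, since their numbered labels could not be tied to single table columns.

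Leaving out 1 library at a time, with a lone remaining sample assumed to vary like the other groups, the number of called members ran from 0 to 13 in untimed KLS cells, 0 to 7 in untimed GMPs, 0 to 14 for DKO against WT and 0 to 31 for DKO against Daxx-KO in KLS cells, 0 to 54 in KLS cells and 1 to 60 in GMPs of the Pu.1 line, and stayed at 0 elsewhere. The median log2 change of the members ran from -0.088 to 0.071 in untimed GMPs, from -0.58 to -0.012 for DKO against WT and from -0.80 to -0.25 for DKO against Daxx-KO in KLS cells, and from -2.09 to -1.02 in KLS cells of the Pu.1 line. In GMPs at 3 w.p.i. it ran from -0.15 to 0.31 for Daxx-KO against WT, from -0.91 to 0.23 for DKO against WT and from -0.89 to 0.22 for DKO against Daxx-KO. The log2 ratio of the share ran from -0.75 to -0.11 for DKO against WT and from -1.04 to -0.40 for DKO against Daxx-KO in KLS cells, from -0.87 to 0.27 and from -1.01 to 0.13 for the same comparisons in GMPs, and from -1.64 to -0.83 in KLS cells of the Pu.1 line.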
